A study of Prunus avium with 21 samples.

Results

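A set of 109 transcripts of sweet cherry flower buds stayed higher after hydrogen cyanamide treatment than after water at 1, 3 and 6 days after treatment (dat). They were chosen by their values. The difference between the mean log2(FPKM + 0.5) of treated and control libraries had to be at least 2 at every day, the lowest treated library had to lie above the highest control library at every day, and the treated libraries of 1 dat had to average at least 5 FPKM (a level scaled for transcript length and for the size of the library). Of 112043 transcripts in the table, 129 met these criteria, and 20 of them, from 11 assembly components that the rule names, were left out. The 109 members fall in 89 assembled genes of 80 components, and 13 of these genes hold more than 1 member, 33 members in all. With isoforms summed per assembled gene, the rule kept 66 genes, 60 of them among these 89. The rest of the 89 met it only as single isoforms.

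The buds came from cut branches of 3 neighbouring ‘Burlat’ trees on the rootstock SL 64, numbered 4, 5 and 6. Branches were sprayed with 2% Dormex (active compound hydrogen cyanamide) or with deionized water as the control and kept in a warm chamber under constant light, and 1 library was made per tree, treatment and day from the pooled flower buds of a branch. The third kind of sample was untreated buds of day 0, taken in the evening and not in the morning like the others. This gives 7 groups of 3 libraries, 21 in all. The study’s methods used fewer replicates at 1 dat than are analysed here. With trees 5 and 6 only at 1 dat the rule kept 111 transcripts, 106 of them among the members.

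All samples are thus one cultivar at one orchard, before its chilling need was met. All 21 libraries resembled most closely a library of their own group. The markers that define the tissue were low: the 3 flower organ identity transcripts (pMADS 2, a SEPALLATA 1-like and a DEFICIENS-like transcript) summed to 1.10 to 5.42 FPKM per library. This sum joins transcripts that differed in opposite directions. At 3 dat pMADS 2 stood at 0.154 to 1.45 FPKM in treated and 2.34 to 2.79 FPKM in control buds. The SEPALLATA 1-like transcript stood at 0.754 to 2.26 FPKM in treated and 1.54e-18 to 0.338 FPKM in control buds of that day. The 4 anther transcripts (DYSFUNCTIONAL TAPETUM 1 and TAPETUM 1) moved with treatment and day, but not together. They summed to at most 0.155 FPKM in treated buds of 1 dat (0.286 to 1.37 in control buds), to 3.90 to 8.73 FPKM at 3 dat (0.0510 to 0.410) and to 15.2 to 95.9 FPKM at 6 dat (2.59 to 18.3). The chlorophyll a-b binding protein transcript, the marker of green tissue, stood at 2.07e-08 to 0.553 FPKM in treated and 1.73 to 2.75 FPKM in control buds of 6 dat. In whole buds fewer cells of a type and less RNA per cell cannot be told apart, and the part of these markers in the members’ levels was not tested. TAPETUM 1 was listed at 0 in at least 1 library of every group except treated buds of 6 dat.

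Hydrogen cyanamide is used by growers to end bud dormancy and bring forward flowering. Plants meet reactive foreign molecules with a detoxification system in which cytochrome P450 enzymes and reductases alter the molecule, glutathione S-transferases and glycosyltransferases attach glutathione or a sugar, and transporters carry the product away. Pathogenesis-related proteins, chitinases and protease inhibitors form a second arm that answers wounding, pathogens and the hormones salicylate and jasmonate. Members were grouped by words in the descriptions of the study, which rest on similarity to Prunus mume, Arabidopsis or other proteins: 107 members had one, 2 had none and 5 were described only as hypothetical, uncharacterized or unknown proteins.

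The largest groups were 18 defence and wound proteins in 14 assembled genes, 13 sugar transferases in 9, 12 carbonyl, quinone and enone reductases in 10, and 11 cytochrome P450 and dioxygenase enzymes in 10. A further 9 members were described as receptors, kinases or channels and 6 as acyl or methyl transferases. Smaller groups held 3 glutathione S-transferases, 3 terpene enzymes, 2 cell wall enzymes, 2 membrane transporters, 2 sulfur enzymes, 1 AAA ATPase and 1 transcription regulator, and 24 members had other descriptions. The transcripts that met the criteria but were left out by name are not counted in these groups. Grouping by words placed 2 members oddly among the receptors and kinases: a methylthioribose kinase-like enzyme of methionine salvage, and a YLS2-like protein whose Arabidopsis match is a calcium-dependent phosphotriesterase. It also put 2 polyphenol oxidases, which are of neither kind, among the cytochrome P450 and dioxygenase enzymes.

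Members were low before treatment and in control buds. The median of the members’ mean levels was 1.16 FPKM at day 0, 1.09, 1.16 and 1.99 FPKM in control buds at 1, 3 and 6 dat, and 20.7, 18.3 and 18.5 FPKM in treated buds. Together they held 0.811 to 0.984% of all FPKM of a treated library at 1 dat, 0.317 to 1.14% at 3 dat and 0.440 to 0.856% at 6 dat, against 0.0397 to 0.0970% in the 9 control libraries and 0.0587 to 0.0722% at day 0. These medians describe levels that the rule had selected, and single members moved apart from them in both treatments.

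**Figure D1:**
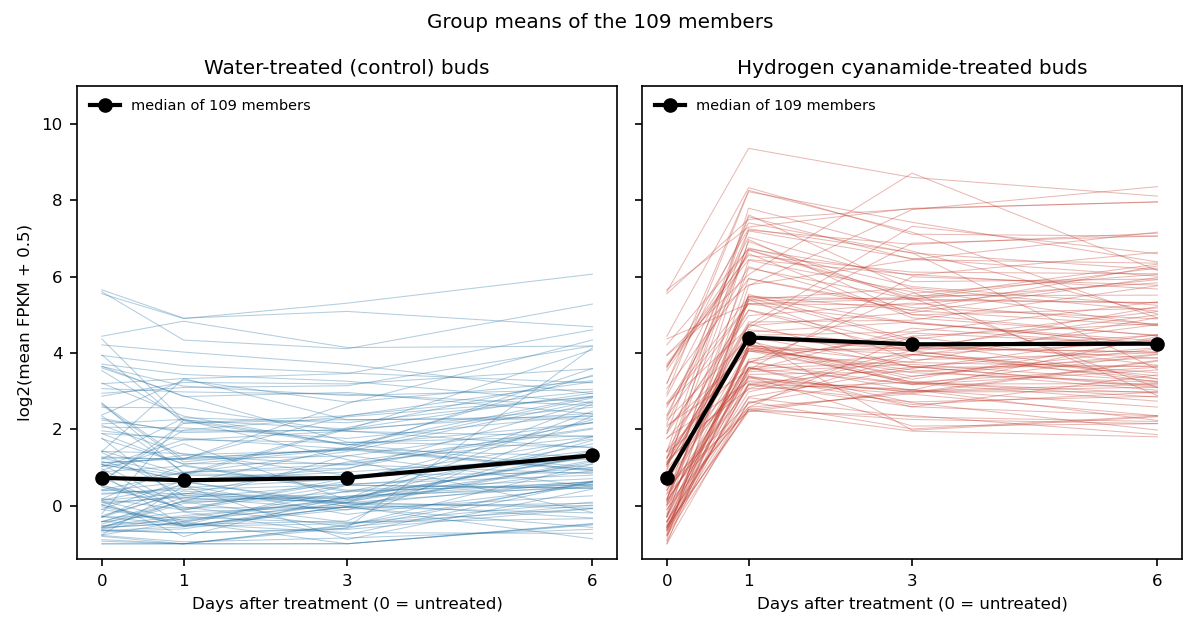
Mean level of each of the 109 members (log2 of mean FPKM + 0.5, thin lines) by day in water-treated and hydrogen cyanamide-treated buds, both starting from the untreated buds of day 0, with the median over members in black. Treated members spread between 5.02 and 658 FPKM at 1 dat, and controls between 0 and 29.7 FPKM.

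The differences between treated and control buds that selected the members had medians of 3.70, 3.17 and 2.63 on the log2(FPKM + 0.5) scale at 1, 3 and 6 dat, a scale that understates the change of transcripts near 0. They ranged from 2.02 to 6.98 at 1 dat, 2.03 to 7.65 at 3 dat and 2.00 to 4.29 at 6 dat. The difference was smallest at 6 dat in 78 of 109 members and largest at 1 dat in 73, at 3 dat in 22 and at 6 dat in 14. With limma and the libraries of a day, 108, 91 and 75 members were called higher at 1, 3 and 6 dat (adjusted p of at most 0.05 and a log2 FC of at least 1), against 2.93%, 1.96% and 0.913% of all transcripts tested (1.01%, 1.05% and 0.495% were called lower). The rule used this very contrast, so nothing is read from these counts.

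Just inside the threshold lay the isoflavone 2'-hydroxylase-like transcript TR38500|c5_g3_i1 (difference of 2.00 at 6 dat), a methyltransferase At5g37990-like transcript (2.02 at 6 dat) and a receptor-like protein kinase At5g39020 transcript (2.02 at 1 dat). Just outside lay another major allergen Pru ar 1-like transcript (1.9987 at 6 dat), another glucan endo-1,3-beta-glucosidase transcript (1.99 at 1 dat) and an ADP-ribosylation factor GTPase-activating protein AGD11-like transcript (1.98 at 6 dat). The edge of the set was thus a matter of hundredths, and 2 of the 3 transcripts outside carry the description of a member inside.

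Of all 109 members, 67 had their highest treated mean at 1 dat, 12 at 3 dat and 30 at 6 dat. The rule’s minimum level applied to 1 dat alone and favoured members high then. The share over all transcripts was not taken, so the counts by class below are a description. In the values below, 3 numbers in a row are always the libraries of trees 4, 5 and 6. The reads of isoforms and of near-identical copies were divided between them by the estimation program, so that levels within a gene family are uncertain, and the depth behind a value is unknown.

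The reductases of carbonyl, quinone and enone groups had a median difference of 4.38 at 1 dat, and all 12 had their highest treated mean at 1 or 3 dat. A 12-oxophytodienoate reductase 2-like transcript (TR13619|c1_g4_i1), of a family that reduces the ring double bond of cyclopentenones such as jasmonate precursors, stood in treated buds at 269, 302 and 349.7 FPKM at 1 dat, 108, 278 and 43.2 FPKM at 3 dat and 42.6, 19.2 and 27.4 FPKM at 6 dat. Control buds had 14.3, 9.27 and 5.13 FPKM at 1 dat, 2.20, 6.58 and 3.95 FPKM at 3 dat and 4.14, 4.39 and 5.13 FPKM at 6 dat, and untreated buds 6.5, 9.53 and 9.98 FPKM. The treated level was lower at each later day in all 3 trees, and tree 5 stood highest at 3 dat. The 2 further reductases of this family among the members, TR12464|c2_g1_i2 and TR26538|c1_g1_i4, averaged 103 and 85.9 FPKM in treated buds at 1 dat and 8.04 and 6.89 FPKM at 6 dat.

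An NADPH:quinone oxidoreductase-like transcript (TR12429|c2_g1_i5), of enzymes that reduce quinones without releasing semiquinone radicals, had the largest difference of any member at 1 dat, 6.98. Treated libraries held 203, 224 and 239.6 FPKM at 1 dat, 88.7, 186 and 30.1 FPKM at 3 dat and 40.8, 17.4 and 37.7 FPKM at 6 dat. Control libraries held 6.76, 1.06e-11 and 0.984 FPKM at 1 dat, 0.233, 1.49 and 0.115 FPKM at 3 dat and 0.00607, 3.89 and 5.12 FPKM at 6 dat, and untreated buds 1.29, 1.67 and 1.24 FPKM. Single control libraries were close to 0, so the difference depends on the pseudocount, but every treated library of 1 dat exceeded 200 FPKM and no control library reached 7. Among the others were 2 cinnamoyl-CoA reductase 1-like transcripts, named after the entry step of lignin synthesis, and 5 neomenthol dehydrogenase-like transcripts, short-chain reductases, of which 3 had their highest treated mean at 3 dat.

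Glutathione S-transferases, which couple glutathione to electrophilic molecules, gave 3 members. The most abundant (TR6518|c0_g1_i1) had 275, 200.3 and 492 FPKM at 1 dat, 153, 139 and 123 FPKM at 3 dat and 90.5, 80.3 and 229 FPKM at 6 dat in treated buds. In control buds it had 21.0, 18.5 and 44.7 FPKM at 1 dat, 12.8, 12.6 and 26.1 FPKM at 3 dat and 7.73, 35.5 and 9.79 FPKM at 6 dat, and at day 0 9.40, 14.3 and 39.9 FPKM. Tree 6 was higher than the other trees before treatment and in treated buds at 1 and 6 dat.

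A second glutathione S-transferase-like transcript (TR27505|c0_g1_i1) did not keep its level. In treated buds it stood at 132, 145 and 181 FPKM at 1 dat, 72.9, 185 and 36.9 FPKM at 3 dat and 10.6, 11.8 and 11.8 FPKM at 6 dat, and in control buds at 10.6, 5.27 and 4.74 FPKM at 1 dat, 1.59, 4.51 and 1.93 FPKM at 3 dat and 2.52, 2.06 and 2.63 FPKM at 6 dat. Its untreated level was 10.4, 11.9 and 12.9 FPKM. At 6 dat treated buds were thus within the range of day 0, and control buds were below day 0 (log2 FC of -2.07 ± 0.42 SE, adjusted p = 0.00131 by limma). The control libraries of 6 dat had entered the rule, and the difference of this transcript at 6 dat was 2.04, just over the threshold. The p-value is thus a description of a chosen member.

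The sugar transferases attach glucose or another sugar to small molecules such as flavonoids, hormones and foreign compounds. Of the 13, 12 had their highest treated mean at 1 dat, against 67 of all 109 members. The flavonoid 3-O-glucosyltransferase 3 transcript (TR13455|c5_g3_i1) had 119, 129 and 144 FPKM at 1 dat, 53.4, 89.8 and 30.8 FPKM at 3 dat and 65.1, 47.6 and 70.0 FPKM at 6 dat in treated buds. Control buds held 9.61, 8.32 and 8.75 FPKM at 1 dat, 9.30, 8.97 and 7.61 FPKM at 3 dat and 10.5, 12.5 and 11.6 FPKM at 6 dat, against 6.62, 6.43 and 7.37 FPKM at day 0. The control libraries of a day lay within 3 FPKM of each other, and its treated level was lowest at 3 dat in trees 4 and 6. The other sugar transferases were 6 UDP-glycosyltransferase 85A5-like transcripts from 3 assembled genes, 2 isoforms of an anthocyanidin 3-O-glucoside 5-O-glucosyltransferase-like gene, 2 scopoletin glucosyltransferase-like transcripts, a second flavonoid 3-O-glucosyltransferase and an anthocyanidin 3-O-glucosyltransferase 2-like transcript. The last was the only one of the 13 with a higher treated mean at 6 dat than at 1 dat, 13.3 against 5.48 FPKM.

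Among the oxygenases, cytochrome P450 enzymes insert oxygen into small molecules. The isoflavone 2'-hydroxylase-like transcript (TR38500|c5_g3_i1), named after a step of isoflavonoid synthesis in legumes, had 168, 184 and 238 FPKM at 1 dat, 38.8, 97.4 and 14.0 FPKM at 3 dat and 29.6, 16.5 and 31.9 FPKM at 6 dat in treated buds. In control buds it had 4.91, 2.18 and 1.63 FPKM at 1 dat, 3.64, 1.44 and 1.83 FPKM at 3 dat and 10.8, 5.88 and 3.10 FPKM at 6 dat, and at day 0 2.66, 4.43 and 2.53 FPKM. At 6 dat the gap between the groups was narrow, from 10.8 FPKM in the highest control library to 16.5 in the lowest treated one.

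Other members of this group had their highest treated mean later. A codeine O-demethylase-like dioxygenase (TR4125|c0_g1_i1), so named after an enzyme of opium poppy, averaged 26.2 FPKM in treated buds at 1 dat, 159.7 at 3 dat and 96.7 at 6 dat. The 2 chloroplastic polyphenol oxidase transcripts, enzymes that oxidise phenols to quinones, averaged 27.6 and 21.6 FPKM at 1 dat and 53.9 and 40.2 FPKM at 6 dat. Of 3 CYP749A22-like transcripts 2 also had their highest treated mean at 6 dat. In the group as a whole, 5 of 11 members had their highest treated mean at 1 dat, 1 at 3 dat and 5 at 6 dat.

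The member with the highest level was a putative methyltransferase (TR12695|c4_g1_i2), whose Arabidopsis match is an S-adenosylmethionine-dependent methyltransferase. Its treated libraries held 687, 589 and 698 FPKM at 1 dat, 419, 546 and 201 FPKM at 3 dat and 338, 205 and 286 FPKM at 6 dat. The control libraries held 25.2, 13.6 and 20.5 FPKM at 1 dat, 14.6, 23.8 and 12.0 FPKM at 3 dat and 36.1, 46.0 and 33.3 FPKM at 6 dat, against 53.7, 45.6 and 45.4 FPKM at day 0. Control buds at 1 and 3 dat were all below day 0, and treated buds were above it at every day. All 6 acyl and methyl transferases had their highest treated mean at 1 dat.

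Sulfur and methionine metabolism gave 2 abundant members. The L-cysteine desulfhydrase-like transcript (TR11504|c0_g1_i1), named after enzymes that release hydrogen sulfide from cysteine, had 169.6, 168 and 171 FPKM at 1 dat, 83.2, 177 and 33.9 FPKM at 3 dat and 113, 47.6 and 57.0 FPKM at 6 dat in treated buds. Its control libraries had 5.72, 3.82 and 4.23 FPKM at 1 dat, 2.99, 2.16 and 2.39 FPKM at 3 dat and 7.0, 7.16 and 6.17 FPKM at 6 dat, and untreated buds 12.0, 6.43 and 7.91 FPKM. The 3 treated libraries of 1 dat agreed within 3 FPKM, whereas those of 3 dat spread from 33.9 to 177 FPKM.

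The methylthioribose kinase-like transcript (TR4225|c0_g2_i1), of the cycle that returns the methylthio group left by ethylene and polyamine synthesis to methionine, had 307, 261 and 331 FPKM at 1 dat, 147, 292 and 75.6 FPKM at 3 dat and 143, 51.1 and 55.9 FPKM at 6 dat in treated buds. Control buds had 10.6, 6.67 and 6.97 FPKM at 1 dat, 5.70, 16 and 3.35 FPKM at 3 dat and 11.6, 22.3 and 19.3 FPKM at 6 dat, and untreated buds 7.07, 6.39 and 8.15 FPKM. The treated mean fell from 299 to 83.3 FPKM between 1 and 6 dat (log2 FC of -2.0 ± 0.49 SE, adjusted p = 0.00848 by limma), and the control means were 8.07 and 17.7 FPKM. The libraries of both days had entered the rule, and the transcript is shown for its high level at 1 dat. The p-value is thus not independent evidence of a fall.

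Defence and wound proteins differed among themselves in time course: 8 of 18 had their highest treated mean at 1 dat, 3 at 3 dat and 7 at 6 dat. The salicylic acid-binding protein 2-like transcript (TR32987|c4_g1_i2), whose tobacco namesake frees salicylate from its methyl ester, had 177, 157 and 236 FPKM at 1 dat, 64.8, 158 and 38.8 FPKM at 3 dat and 207, 123 and 101 FPKM at 6 dat in treated buds. Control buds had 8.10, 8.94 and 11.6 FPKM at 1 dat, 7.31, 13.4 and 10.9 FPKM at 3 dat and 16.9, 28.6 and 26.2 FPKM at 6 dat, above the 2.25, 1.84 and 2.45 FPKM of day 0 in every library. Both treatments were thus above day 0, treated buds by far more.

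A major allergen Pru ar 1-like transcript (TR13296|c0_g5_i8), of the PR-10 family to which birch pollen and apricot allergens belong, had 187, 201 and 154 FPKM at 1 dat, 243, 261 and 153 FPKM at 3 dat and 378, 176 and 196 FPKM at 6 dat in treated buds. In control buds it had 31.4, 26.5 and 30.5 FPKM at 1 dat, 42.8, 45.5 and 29.0 FPKM at 3 dat and 4.77, 101 and 94.5 FPKM at 6 dat, and at day 0 44.5, 42.7 and 52.3 FPKM. Its difference at 6 dat of 2.67 rested on tree 4, where it was 6.16, against 0.80 and 1.05 in trees 5 and 6. Of the 3 further isoforms of this gene among the members, all averaged more at 6 dat than at 1 dat in treated buds, for example 25 and 134 FPKM.

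The glucan endo-1,3-beta-glucosidase-like transcript (TR13502|c1_g2_i3), whose Arabidopsis match is a thaumatin-type pathogenesis-related protein, had 158, 176 and 139 FPKM at 1 dat, 282, 251 and 131 FPKM at 3 dat and 427, 176 and 141 FPKM at 6 dat in treated buds. Controls had 40.2, 21.8 and 27.0 FPKM at 1 dat, 36.0, 36.3 and 28.4 FPKM at 3 dat and 24.3, 25 and 26.7 FPKM at 6 dat, and untreated buds 56.7, 48.3 and 44.9 FPKM. Its controls lay below every library of day 0. Of the 5 members with the highest difference at 6 dat, 2 were also defence proteins.

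The first, a pathogen-related protein-like transcript (TR9142|c0_g1_i4), had 76.4, 75.1 and 71.1 FPKM at 1 dat, 38.9, 70.9 and 16.6 FPKM at 3 dat and 58.8, 22.8 and 37.0 FPKM at 6 dat in treated buds. Its control libraries had 1.20, 0.575 and 0.106 FPKM at 1 dat, 0.706, 0.839 and 0.375 FPKM at 3 dat and 0.676, 3.43 and 1.71 FPKM at 6 dat, and those of day 0 had 0.860, 1.10 and 0.801 FPKM. No control or untreated library reached 4 FPKM. The other, an endochitinase 2-like transcript (TR24251|c0_g1_i1) for the breakdown of chitin, had 26.9, 47.2 and 64.0 FPKM at 1 dat, 9.63, 46.0 and 4.19 FPKM at 3 dat and 78.7, 10.4 and 11.5 FPKM at 6 dat in treated buds, 0.243, 0.194 and 0.162 FPKM at 1 dat, 0.418, 2.37 and 0.0709 FPKM at 3 dat and 0.386, 1.89 and 0.336 FPKM at 6 dat in control buds and 0.151, 0.185 and 0.624 FPKM at day 0. Its treated libraries ranged over 10-fold at 3 dat, with tree 5 highest. A non-specific lipid-transfer protein 1-like transcript, a small secreted protein that binds lipids, had one of the largest differences at 1 dat (6.73) and averaged 125 FPKM then and 35.7 FPKM at 6 dat.

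The member with the highest difference at 6 dat, 4.29, was a DJ-1 homolog D-like transcript (TR26924|c2_g2_i3), of a family whose plant members include glyoxalases that remove methylglyoxal. In treated buds it had 27.8, 36.1 and 97.7 FPKM at 1 dat, 101, 509 and 39.2 FPKM at 3 dat and 559, 211 and 215 FPKM at 6 dat. Control buds had 2.57e-05, 3.83e-04 and 2.64e-04 FPKM at 1 dat, 1.49e-04, 0.509 and 8.30e-04 FPKM at 3 dat and 18.0, 27.2 and 6.18 FPKM at 6 dat, and untreated buds 0.00417, 1.46e-04 and 0.115 FPKM. It was near 0 before treatment and in 5 of 6 control libraries of 1 and 3 dat, and it appeared in all 3 control libraries at 6 dat. A beta-galactosidase transcript (TR11897|c1_g1_i9), of enzymes that trim galactose from cell wall polymers, had 20.5, 22.0 and 34.8 FPKM at 1 dat, 21.8, 64.8 and 11.9 FPKM at 3 dat and 113, 44.4 and 30.5 FPKM at 6 dat in treated buds. It had 4.73, 1.90 and 1.83 FPKM at 1 dat, 3.29, 2.98 and 1.66 FPKM at 3 dat and 3.55, 4.67 and 0.937 FPKM at 6 dat in control buds and 1.51, 1.32 and 1.78 FPKM at day 0. No control library exceeded 5 FPKM, and the treated level was highest at 6 dat in tree 4, at 3 dat in tree 5 and at 1 dat in tree 6.

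Receptors and channels of signalling were less abundant, and 7 of the 9 in this group had their highest treated mean at 6 dat. A cyclic nucleotide-gated ion channel 1-like transcript (TR40110|c2_g4_i2), of plasma membrane cation channels that take part in calcium signalling, had 4.56, 6.71 and 8.88 FPKM at 1 dat, 6.41, 25.4 and 2.94 FPKM at 3 dat and 30.6, 18.3 and 16.9 FPKM at 6 dat in treated buds, 0.264, 0.0602 and 0.252 FPKM at 1 dat, 0.411, 0.769 and 0.118 FPKM at 3 dat and 0.639, 1.08 and 0.374 FPKM at 6 dat in control buds and 0.121, 0.133 and 0.502 FPKM at day 0. Every treated library of 6 dat was above the treated library of the same tree at 1 dat. The 4 transcripts named after the receptor-like kinase At5g39020 averaged 9.85 to 20.7 FPKM in treated buds at 1 dat and 13.5 to 36.7 FPKM at 6 dat, each higher at 6 than at 1 dat.

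The only transcription regulator, a MYB34 or ODORANT1-like transcript (TR10621|c1_g2_i2), of R2R3-type MYB factors that control indole glucosinolate genes in Arabidopsis and floral scent in petunia, was among the lowest members at 1 dat. Treated buds had 5.25, 4.57 and 5.25 FPKM at 1 dat, 6.83, 12.7 and 3.48 FPKM at 3 dat and 31.9, 18.5 and 13 FPKM at 6 dat. Control buds had 0.573, 0.105 and 0.327 FPKM at 1 dat, 0.379, 0.430 and 0.956 FPKM at 3 dat and 1.72, 1.37 and 1.08 FPKM at 6 dat, and untreated buds 0.0519, 0.291 and 0.239 FPKM. It was called higher at 6 than at 1 dat in treated buds, and higher at 6 dat than at day 0 in control buds. A LOB domain-containing protein 1-like transcript, also named after a family of transcription factors but without a word of the regulator list, averaged 26.6 FPKM at 1 dat and 12.2 FPKM at 6 dat in treated buds.

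The remaining groups were low in level. An alpha-farnesene synthase-like transcript (TR12702|c1_g1_i8), for a sesquiterpene volatile, had 15.7, 12.5 and 22.4 FPKM at 1 dat, 14.4, 26.5 and 7.84 FPKM at 3 dat and 8.41, 8.76 and 9.71 FPKM at 6 dat in treated buds, 1.56, 0.988 and 0.448 FPKM at 1 dat, 0.794, 3.62 and 2.71 FPKM at 3 dat and 1.10, 1.25 and 1.89 FPKM at 6 dat in control buds and 0.164, 0.513 and 0.257 FPKM at day 0. All 3 members of the terpene group were isoforms of this 1 gene. A boron transporter 4 transcript (TR33141|c4_g1_i7), named after a borate exporter of Arabidopsis, had 9.43, 4.47 and 13.1 FPKM at 1 dat, 5.53, 12.1 and 3.57 FPKM at 3 dat and 7.63, 2.33 and 3.91 FPKM at 6 dat in treated buds, 0.505, 1.20 and 8.60e-07 FPKM at 1 dat, 4.52e-05, 0.719 and 2.76e-04 FPKM at 3 dat and 0.0257, 0.693 and 0.153 FPKM at 6 dat in control buds and 0.0278, 3.90 and 4.84 FPKM at day 0. Its level at day 0 overlapped that of treated buds at 6 dat. The BCS1-B transcript (TR26904|c4_g1_i8), a mitochondrial AAA ATPase, had 6.96, 7.31 and 9.46 FPKM at 1 dat, 16.1, 24.3 and 8.32 FPKM at 3 dat and 33.6, 16.8 and 14.6 FPKM at 6 dat in treated buds. Its controls had 0.535, 1.14 and 0.509 FPKM at 1 dat, 1.5, 2.21 and 1.42 FPKM at 3 dat and 3.13, 4.54 and 3.10 FPKM at 6 dat, and day 0 0.605, 1.16 and 0.736 FPKM, and it was called higher at 6 than at 1 dat in both treatments.

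Expansin-like B1 (TR8498|c0_g1_i1), of a protein family related to wall-loosening expansins, had 10.8, 21.2 and 29.3 FPKM at 1 dat, 3.67, 4.88 and 1.76 FPKM at 3 dat and 8.63, 3.45 and 1.51 FPKM at 6 dat in treated buds. Controls had 0.148, 0.132 and 0.290 FPKM at 1 dat, 0.0399, 0.487 and 0.132 FPKM at 3 dat and 0.471, 0.700 and 0.183 FPKM at 6 dat, and untreated buds 1.17, 0.792 and 1.85 FPKM. It was high at 1 dat, and by 6 dat its treated range reached down to that of day 0. Its sequence is shown because it is the only member for which a nucleotide sequence was at hand, a stretch of 399 bases from the study’s supplementary tables that is shortened there. The first 300 bases of a reading frame that meets no stop codon up to the end of that stretch are given 5′ to 3′, with the start codon in capitals.
EXLB1: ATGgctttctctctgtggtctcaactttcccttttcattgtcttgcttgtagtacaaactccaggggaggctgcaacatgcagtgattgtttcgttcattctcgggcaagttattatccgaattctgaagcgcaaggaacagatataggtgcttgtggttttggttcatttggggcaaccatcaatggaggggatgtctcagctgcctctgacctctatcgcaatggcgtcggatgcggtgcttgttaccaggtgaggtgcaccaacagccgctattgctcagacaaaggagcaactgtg
The cellulose synthase-like protein G3 transcript, the other member of the cell wall group, averaged 16.8 FPKM at 1 dat and 6.18 FPKM at 6 dat in treated buds.

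**Figure D2:**
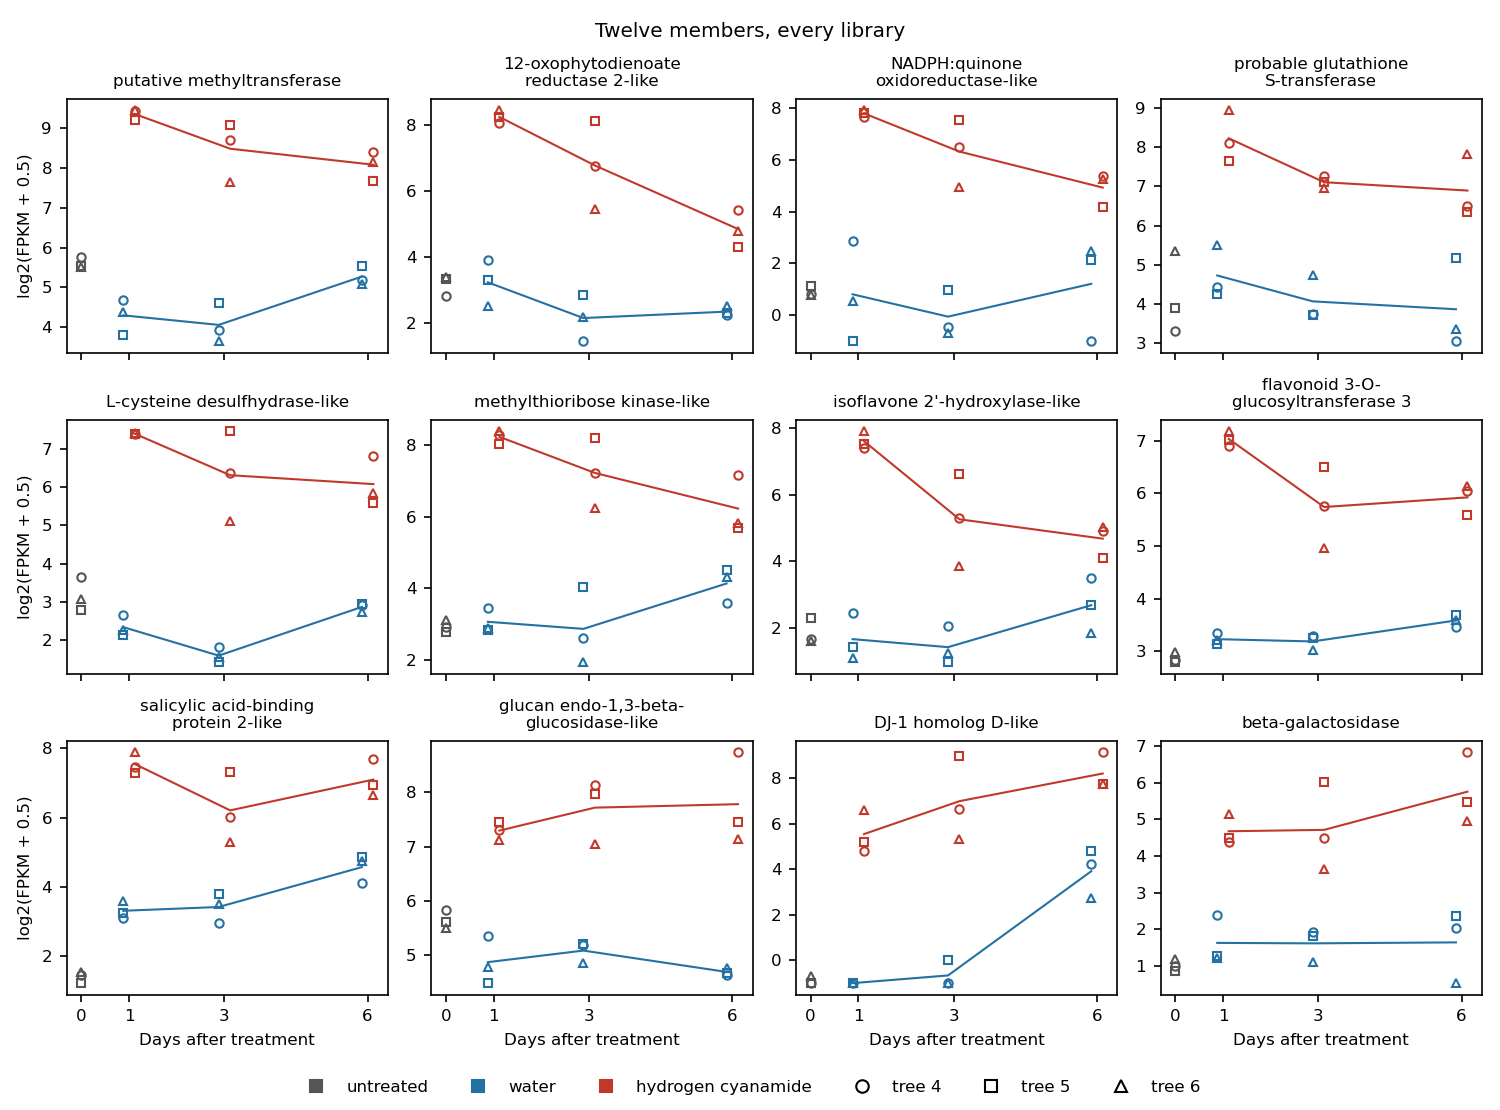
Level of 12 members (log2(FPKM + 0.5)) in every library by day, with trees 4, 5 and 6 as circles, squares and triangles, lines through the group means, and untreated, control and treated libraries in grey, blue and red. The treated libraries lie above all controls of the same day in every panel, and those of tree 5 are the highest at 3 dat in most.

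Of the members whose description names no protein, the hypothetical protein TR26636|c6_g2_i1 was the most abundant. It had 132, 152 and 163 FPKM at 1 dat, 92.8, 183 and 67.9 FPKM at 3 dat and 154, 133 and 135 FPKM at 6 dat in treated buds, 2.84, 2.92 and 4.05 FPKM at 1 dat, 2.58, 5.23 and 2.61 FPKM at 3 dat and 19.6, 16.6 and 13.4 FPKM at 6 dat in control buds and 3.69, 5.16 and 4.28 FPKM at day 0. Its treated means at 1 and 6 dat were 149 and 141 FPKM, while its controls rose between these days (log2 FC of 2.17 ± 0.29 SE, adjusted p = 5.97e-05 by limma). These control libraries had entered the rule, so the p-value is a description of a chosen member. An early nodulin-75-like transcript, a proline-rich protein of the cell wall, was the most abundant member at 3 dat, with 60.2, 64.7 and 73.2 FPKM at 1 dat, 286, 861 and 115 FPKM at 3 dat and 118, 53.3 and 43.0 FPKM at 6 dat in treated buds. Its untreated libraries had 16.1, 14.3 and 14.4 FPKM, and its control means were 3.97, 4.28 and 4.34 FPKM. Further members in this mixed group were 4 isoforms of a 2-hydroxyisoflavanone dehydratase-like gene of the alpha/beta-hydrolase family, 2 tetrahydrocannabinolic acid synthase-like oxidases, 2 acyl-activating enzymes of the peroxisome and a second DJ-1 isoform.

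**Figure D3:**
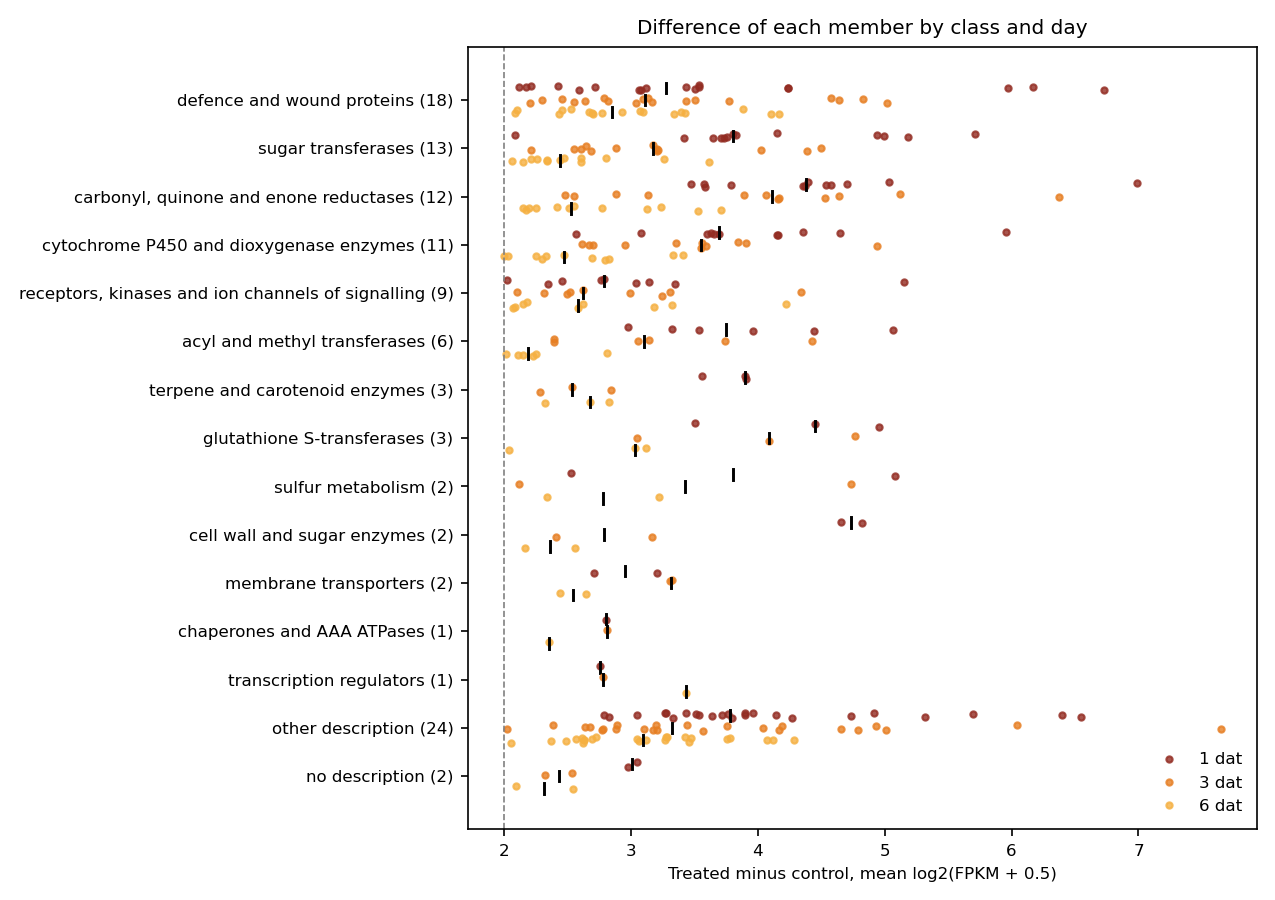
Treated minus control difference of each member (mean log2(FPKM + 0.5), horizontal axis) by class, at 1, 3 and 6 dat from dark to light, with medians as black ticks and the number of members in brackets; the dashed line is the threshold of 2. The median of the reductases goes from 4.38 to 2.53 between 1 and 6 dat, whereas that of the defence proteins goes from 3.28 to 2.85.

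The same measure was read in trees that a selection had not used. When the rule was applied to trees 5 and 6 alone, it chose 76 transcripts, and all 76 were higher in treated than in control buds of tree 4 at all 3 days, compared with 28.0% of the 18276 transcripts that met the same minimum level. In tree 4, 60 of the 76 (78.9%) again differed by at least 2 at all 3 days, against 1.06% of all. Left-out tree 5 was higher at all days in 121 of 125 chosen transcripts (background of 25.4%) and differed by at least 2 in 51 (40.8%, background of 0.564%). For tree 6 these counts were 128 of 136 (background of 22.9%) and 54 (39.7%, background of 0.478%). The direction was seen again in nearly all chosen transcripts in each tree left out, and the size at all 3 days in a larger share for tree 4 than for trees 5 and 6.

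Within the trees, 96, 76 and 50 of the members differed by at least 2 in every tree at 1, 3 and 6 dat, values that the rule had used in part (2.76%, 1.20% and 0.502% of all transcripts at the same minimum level). When a difference of at least 2 was required within every tree at every day, 32 of the 109 were left. The median difference at 6 dat was 3.42 in tree 4, 2.09 in tree 5 and 2.45 in tree 6.

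Treated libraries of a day differed from each other as a block. At 3 dat the treated library of tree 5 was the highest of the 3 in 105 of 109 members (96.3%) and that of tree 6 was the lowest in 100 (91.7%) and never the highest. Tree 4 was highest in 4 and lowest in 9. Over all 18135 transcripts at the same minimum level, tree 4 was highest in 28.2% and lowest in 28.3%, tree 5 was highest in 29.0%, and tree 6 was highest in 42.8% and lowest in 29.1%. The members’ FPKM summed to 4302, 8017 and 2275 in the treated libraries of trees 4, 5 and 6, and the highest was 3.52 times the lowest. At 6 dat tree 4 was highest in 93 members (85.3%, against 36.5% of all transcripts), with sums of 6316, 3305 and 3347 FPKM. The lowest library was that of tree 4 in 7 members, of tree 5 in 43 and of tree 6 in 59, against 35.4%, 27.3% and 37.3% of all transcripts. The treated libraries of 1 dat were closer, with sums of 5662, 5927 and 6956 FPKM, and tree 6 was highest in 66 members (60.6%, against 33.7% of all transcripts). The SD of the 3 treated libraries had a median over members of 16% of the mean at 1 dat, 60.8% at 3 dat and 47.2% at 6 dat. At 3 dat the anther transcripts summed to 5.36, 8.73 and 3.90 FPKM and the flower organ transcripts to 2.25, 4.33 and 1.10 FPKM in the treated libraries of trees 4, 5 and 6, in the same order as the members. At 6 dat they summed to 19.8, 95.9 and 15.2 FPKM and to 5.09, 3.26 and 1.64 FPKM, in orders that differ from that of the members. In the treated libraries of 1 dat they summed to 0.0490, 0.155 and 1.5e-26 FPKM and to 4.83, 2.03 and 3.74 FPKM. These orders also differ from that of the members. The treated anther sum was mostly DYSFUNCTIONAL TAPETUM 1 at 3 dat and TAPETUM 1 at 6 dat. The part of these marker transcripts in the members’ order was not tested.

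**Figure D4:**
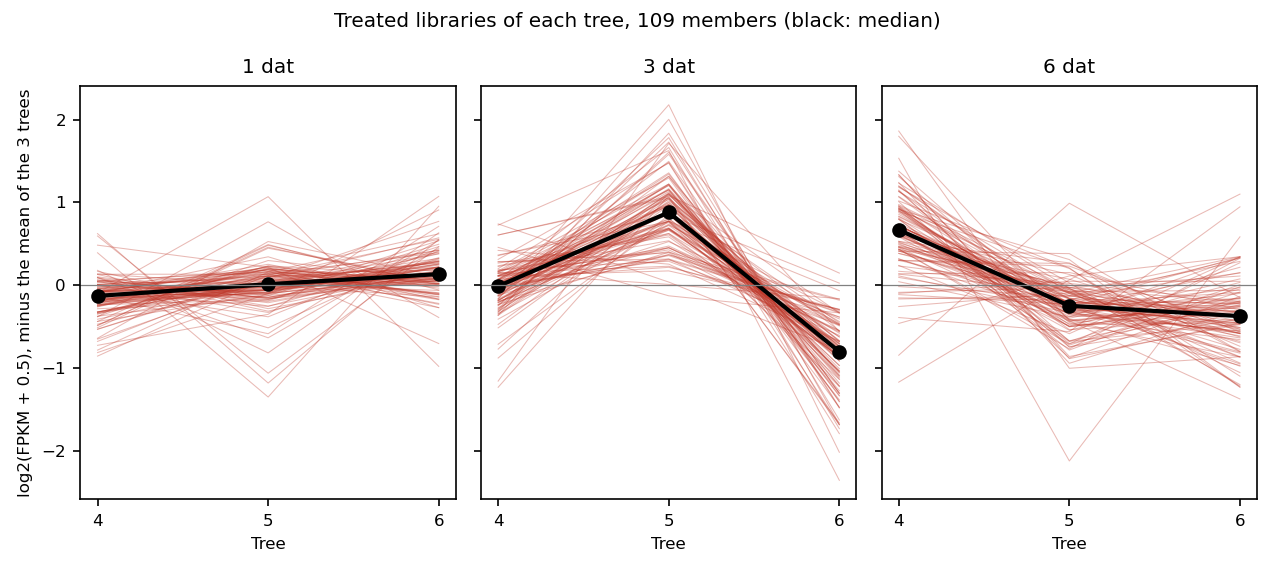
Level of each of the 109 members in the treated libraries of trees 4, 5 and 6, as log2(FPKM + 0.5) minus the mean of the 3 trees, at 1, 3 and 6 dat, with the median over members in black. Nearly all lines peak at tree 5 and dip at tree 6 at 3 dat, and most are highest in tree 4 at 6 dat.

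The time course was tested with limma over all 21 libraries. All 109 members passed the filter of a mean of at least 0.5 FPKM, as the rule’s minimum at 1 dat makes them do. The treated and control libraries in these contrasts had also chosen the members, so neither the counts nor the p-values here and below are independent of the rule. Its minimum level at 1 dat favoured members high then, and with them a fall after 1 dat. From 1 to 6 dat in treated buds, 26 members were lower (4.42% of all transcripts tested were) and 14 were higher (6.67%), and 69 were not called, with a median log2 FC of -0.54 against 0.01 for all transcripts.

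Sugar transferases made up the largest share of the lower members. Of 13 sugar transferases 10 were lower and 1 was higher, of 12 reductases 4 were lower, and of 3 glutathione S-transferases 2 were lower. The largest decreases were those of the 3 oxophytodienoate reductase-like transcripts (log2 FC of -3.41 to -3.82), the glutathione S-transferase-like TR27505|c0_g1_i1 (-3.67 ± 0.42 SE, adjusted p = 8.81e-06 by limma) and the isoflavone 2'-hydroxylase-like TR38500|c5_g3_i1 (-2.93 ± 0.55 SE, adjusted p = 0.00102 by limma). Expansin-like B1 and the cellulose synthase-like protein G3 were also lower (-2.22 and -1.51).

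The 14 higher members included both DJ-1 isoforms (2.66 and 2.34), 3 of 4 isoforms of the Pru ar 1-like gene (2.16 to 2.37), the SKOR-like potassium channel transcript (2.06), MYB34 (1.88 ± 0.39 SE, adjusted p = 0.00233 by limma), the codeine O-demethylase-like dioxygenase (1.83) and the cyclic nucleotide-gated channel (1.63). In control buds 18 members were higher at 6 than at 1 dat (16.5%, against 5.21% of all transcripts) and 1 was lower (0.917%, against 2.55%). Of the 14 that were higher in treated buds 9 were also among the 18 of the controls (64.3% of the treated list and 50.0% of the control list). Isoforms of the Pru ar 1-like gene are among these 9. The same overlap over all transcripts was not taken, so nothing particular to the members is read from it. The 14 became 7 without the treated library of tree 4 at 1 dat, 8 without that of tree 5 at 1 dat and 7 without that of tree 4 at 6 dat. The 26 became 17 without the treated library of tree 6 at 1 dat and 12 without that of tree 5 at 6 dat, and the 1 lower member of the controls became 0 when tree 4 was left out of the controls of 1 dat or tree 5 out of those of 6 dat.

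**Figure D5:**
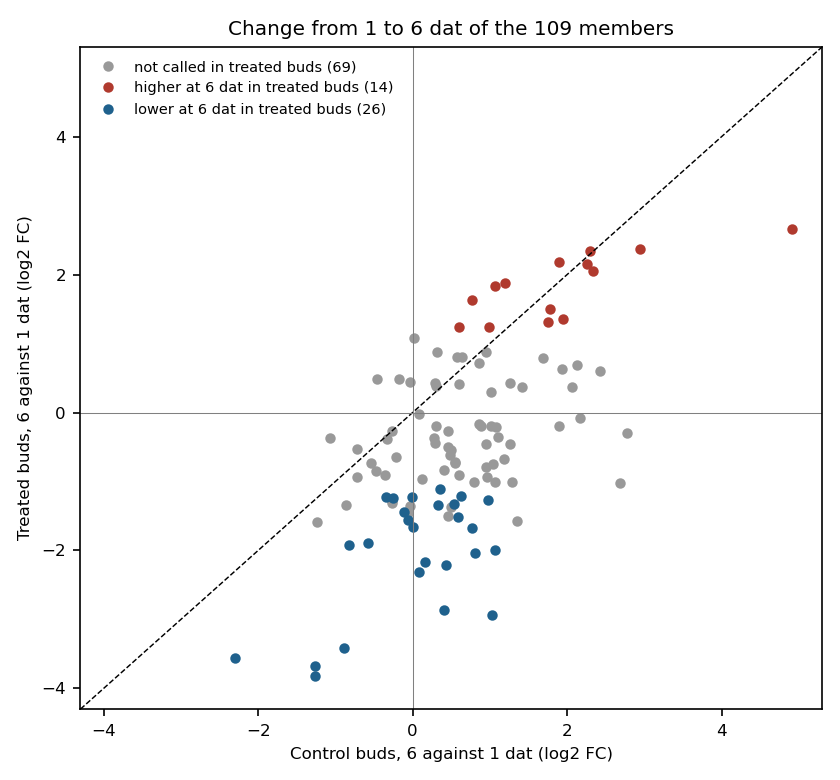
Change from 1 to 6 dat of each member (log2 FC) in control buds (horizontal axis) and treated buds (vertical axis), coloured by the limma call in treated buds. Most of the 109 points, 90, lie below the dashed line of equal change.

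From 1 to 3 dat in treated buds, 11 members were lower (10.1%, against 1.47% of all transcripts) and 5 were higher (4.59%, against 3.30%). The rule’s minimum level at 1 dat favoured members high then, so nothing particular to the members is read from these shares. The 11 were 6 sugar transferases, both isoflavone 2'-hydroxylase-like transcripts, expansin-like B1, the lipid-transfer protein and the salicylic acid-binding protein 2-like transcript. The 5 were the early nodulin-75-like transcript (2.20 ± 0.49 SE, adjusted p = 0.00795 by limma), the codeine O-demethylase-like dioxygenase (2.54), 2 isoforms of Pru ar 1-like and the SKOR-like transcript. These counts hung on single libraries of the spread-out 3 dat group. The 11 became 25 without the treated library of tree 5 at 3 dat and 2 without that of tree 6, 7 without that of tree 4 at 3 dat, of tree 4 at 1 dat or of tree 5 at 1 dat, 5 without that of tree 6 at 1 dat, and 2 when only the libraries of the contrast were fitted. The 5 became 3 when tree 4 or 6 was left out of the treated group of 1 dat, or tree 4 or 5 out of that of 3 dat.

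The change of the treated minus control difference itself from 1 to 6 dat was called in 10 members, all smaller at 6 dat (9.17%, against 1.14% of all transcripts), and in 0 as larger (0.598% of all). At an unadjusted limma p under 0.05 these numbers were 39 and 0. The share of all transcripts at that threshold was not taken, so nothing is read from them. The rule favoured this direction, since its minimum level applied to 1 dat alone. That minimum reduced the transcripts that met the other criteria at 1 dat from 991 to 695 and those at 6 dat from 516 to 199, so transcripts that became high only later were removed, and the counts and p-values are a description of the chosen members. The difference was smaller at 6 dat in 90 members and larger in 19, with a median change of -1.10. The largest drops were those of the isoflavone 2'-hydroxylase-like TR38500|c5_g3_i1 (5.96 to 2.00), an uncharacterized protein of the Rossmann-fold type, TR12298|c4_g3_i1 (6.4 to 2.70), and the NADPH:quinone oxidoreductase-like transcript (6.98 to 3.71), the last not called. The largest gains, none of them called, were those of beta-galactosidase (3.05 to 4.12), a Glu S. griseus protease inhibitor-like transcript (2.12 to 3.07) and the cyclic nucleotide-gated channel (3.35 to 4.22). The 10 became 3 without the treated library of tree 6 at 1 dat, 6 without that of tree 5 at 6 dat and 16 without that of tree 4 at 6 dat. Without a control library they became 6 (tree 5 or 6 at 1 dat, or tree 4 at 6 dat) or 5 (tree 5 at 6 dat), and with only the libraries of the contrast 17.

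The untreated buds were not used by the rule, but the treated libraries set against them were chosen to be high, so the counts in this paragraph are a description and their excess over all transcripts is largely fixed by the choice of members. Every library of day 0 lay below every treated library of all 3 days in 101 of 109 members, against 20.1% of transcripts at the same minimum level, and the mean of day 0 lay within the range of the 9 control libraries in 85, against 57.5%. At 6 dat limma called 100 members higher in treated buds than at day 0 (91.7%, against 13% of all transcripts) and 0 lower (6.83% of all). The number lower was also 0 at an unadjusted limma p under 0.05, where the share of all transcripts was not taken. The median log2 FC was 3.16. The 9 that were not called included expansin-like B1, the boron transporter, 1 of the oxophytodienoate reductases and the glutathione S-transferase-like TR27505|c0_g1_i1 (log2 FC of -0.03).

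The control libraries had entered the rule too, which kept them below the treated ones. The counts and p-values of this paragraph are thus a description of the chosen members. In control buds of 1 dat 3 members were higher than at day 0 (2.75%, against 5.25% of all transcripts) and 5 were lower (4.59%, against 2.08%). The 3 were the codeine O-demethylase-like dioxygenase, the salicylic acid-binding protein 2-like transcript and the oxophytodienoate reductase TR26538|c1_g1_i4. The 5 were both methyltransferases of TR12695, an isoflavone 2'-hydroxylase-like, the early nodulin-75-like and a glycine-rich cell wall transcript. By 6 dat 24 were higher (22.0%, against 12.4%) and 5 were lower (4.59%, against 4.46%), the latter near the share of all transcripts. The largest rises in controls were those of DJ-1 (4.81 ± 0.71 SE, adjusted p = 6.32e-05 by limma) and salicylic acid-binding protein 2-like TR32987|c4_g1_i2 (3.16 ± 0.38 SE, adjusted p = 6.63e-06 by limma). The 5 lower members of 1 dat became 2 without the control library of tree 5 or the untreated library of tree 6, and the 5 of 6 dat became 2 without the control library of tree 6 and 3 without the untreated library of tree 6. Rescaling by median ratios moved the median of all transcripts by -0.15 at 1 dat and -0.17 at 6 dat in these 2 contrasts.

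Related transcripts outside the set were read in the same contrast. The assembled genes with a member hold 314 other isoforms, of which 222, 228 and 218 passed the filter at 1, 3 and 6 dat. Of these, 109, 70 and 31 were called higher in treated buds and 1, 1 and 0 lower by limma, with median log2 FCs of 1.81, 1.39 and 0.89. Over all transcripts tested 2.93%, 1.96% and 0.913% were called higher, a share that also declined over the days. The members had to differ by at least 2 at every day, so that their larger medians are fixed by the rule. Isoforms share reads with the members, so these values are not independent of them. Transcripts of the same 13 classes outside the set number 1954, and their names come from the study’s tables of changed transcripts, so the lists were chosen on these samples and are not evidence of a direction. Of non-member reductases tested, 122 of 163 were higher at 1 dat, 60 of 151 at 3 dat and 19 of 129 at 6 dat, and of sugar transferases 81 of 107, 50 of 107 and 13 of 112. Defence proteins lost fewer calls, with 40 of 98, 40 of 117 and 26 of 117, and so did receptors and kinases, with 82 of 292, 65 of 315 and 43 of 338. The chaperones and AAA ATPases outside the set had 15 of 45, 6 of 47 and 1 of 46 called higher, with a median log2 FC of -0.12 at 6 dat. Whether these declines differ between classes, or from that over all transcripts, was not tested.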

How the data were processed

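The authors trimmed reads with Trimmomatic 0.33, assembled transcripts with Trinity, aligned with STAR and estimated levels with eXpress 1.5.1, and deposited FPKM values per assembled transcript, already scaled for length and library size. Without counts the depth of a library cannot be known, and values carry no counting interval. The FPKM of a library summed to 671152 to 760090.

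The rule was applied to all 112043 transcripts on log2(FPKM + 0.5). The members, classes and lists were chosen with earlier results of these data known. The time course was fitted over all 21 libraries in limma 3.58.1 (R 4.3.3, moderated variances with a mean trend) for the 62855 transcripts that averaged 0.5 FPKM or more. A call needed a Benjamini-Hochberg adjusted p up to 0.05 and a log2 FC of 1 or more in size. The procedure was tested on simulated data. Values are named in full for the 12 members highest at 1 dat, the 5 with the largest difference at 6 dat and the highest of each class, and in part for those nearest the threshold and with the largest changes of difference. Tree labels pair the libraries, since the same 3 trees gave every group, but deviations from the group means correlated between libraries of the same tree only at -0.0974 to 0.0834. Tables and figures used Python 3.11.15, numpy 2.4.6, pandas 2.3.3 and matplotlib 3.10.9. Other pseudocounts, filters, thresholds, a rescaling, a tree block and leaving out each library were tried as alternatives.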

Additional observations from a re-analysis of the deposited data

Results flagged for a closer look

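The treated minus control difference changed between 1 and 6 dat in 10 members by limma (adjusted p of at most 0.05 and a log2 change of at least 1), and in all 10 it was smaller at 6 dat in every tree. The change was -3.96 (SE 0.78, adjusted p = 0.00984) for the isoflavone 2'-hydroxylase-like TR38500|c5_g3_i1 and -2.32 (SE 0.49, adjusted p = 0.0156) for TR38500|c5_g1_i1 of the same description. It was -3.70 (SE 0.80, adjusted p = 0.0173) for the Rossmann-fold protein TR12298|c4_g3_i1, -3.06 (SE 0.70, adjusted p = 0.0251) for the methylthioribose kinase-like TR4225|c0_g2_i1 and -2.41 (SE 0.60, adjusted p = 0.0407) for the glutathione S-transferase-like TR27505|c0_g1_i1.

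Among the methyltransferases it was -2.29 (SE 0.49, adjusted p = 0.0168) for TR12695|c0_g1_i1, -2.25 (SE 0.44, adjusted p = 0.00922) for TR12695|c4_g1_i2 and -1.52 (SE 0.36, adjusted p = 0.0304) for TR7771|c1_g1_i1. It was -2.25 (SE 0.41, adjusted p = 0.00542) for the hypothetical protein TR26636|c6_g2_i1 and -1.47 (SE 0.35, adjusted p = 0.0338) for the flavonoid 3-O-glucosyltransferase TR13455|c5_g3_i1. The libraries of both days had chosen the members, and the rule’s minimum level at 1 dat alone favoured larger differences at 1 than at 6 dat, so these p-values describe the chosen members and are not independent evidence of the direction.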

How the results depend on the processing

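The rule kept 109 transcripts as written, 198 at a difference of 1.5, 58 at 2.5 and 32 with a replicate block, that is, a difference of at least 2 within every tree. It kept 136 with a pseudocount of 0.1 and 80 with a pseudocount of 1. With isoforms summed per assembled gene, 66 genes met it, and 60 of the 89 genes with a member were among them. Leaving out 1 library gave 79 to 130. In the limma fits, the count of members higher at 3 than at 1 dat in treated buds went from 5 to 3 with a pseudocount of 0.1, without the filter or after rescaling, and the count of lower members from 11 to 7 without the filter and to 2 with only the libraries of the contrast. At 6 against 1 dat the higher members went from 14 to 9 with a pseudocount of 0.1 or without the filter. The shrinking differences went from 10 to 17 with only the libraries of the contrast. Control buds of 1 dat against day 0 went from 3 to 5 higher and 5 to 8 lower with a pseudocount of 0.1, and the 1 member lower at 6 than at 1 dat became 2 with a filter of 1 FPKM and 3 with only the libraries of the contrast. Over single left-out libraries the counts ran from 3 to 7 higher and 2 to 25 lower (treated, 3 against 1 dat), 7 to 11 and 12 to 31 (treated, 6 against 1 dat), 3 to 16 (shrinking differences), 2 to 7 lower (control 1 dat against day 0), 2 to 6 lower (control 6 dat against day 0) and 0 to 1 lower (control, 6 against 1 dat). The replicate block changed no limma count by over 1.5 times. Over the called contrasts of named members, the call was kept in 300 leave-one-out and 429 other settings. It was lost in 72 and 19, and the sign changed in 0. The cause of these shifts was not tested. Depth limits are unknown without counts.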
